A study of Mus musculus with 73 samples.

Results

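Ephrins are cell-surface ligands whose Eph receptors are receptor tyrosine kinases on neighbouring cells, so that ligand and receptor meet only where cells touch. Type A ephrins are held to the membrane by a lipid anchor and mainly bind EphA receptors, while type B ephrins span the membrane and mainly bind EphB receptors. In the intestinal epithelium the pathway is known for positioning cells along the crypt-villus axis, with the Wnt target receptors EphB2 and EphB3 high at the crypt base and ephrin-B ligands higher in cells that have left it. The 9 members described here are the 6 receptors *Ephb2*, *Ephb3*, *Ephb4*, *Epha1*, *Epha2* and *Epha3* and the 3 ligands *Efnb1*, *Efnb2* and *Efna1*. They are 9 of the 17399 genes listed for bulk epithelium, 8 of the 20882 listed for captured fragments and 9 of the 21058 listed for single cells, with *Epha3* not analysed in the captured fragments.

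The study compared mouse jejunum in 3 data sets. Bulk epithelium came from *Lgr5*(GFP-ires-DTR/+) male mice aged 4 months, 48 h after an intraperitoneal injection of diphtheria toxin at 50 µg/kg (DT, n = 4) or of saline vehicle (control, n = 4). All 8 mice carried the receptor for the toxin at the *Lgr5* locus, which is active in villus tip telocytes and also in crypt stem cells, so loss of either population cannot be told apart in this model. Laser capture microdissection (LCM) gave stromal fragments of 3 month old C57BL/6 male mice from the crypt (6 sections, 3 mice), villus bottom (8 sections, 5 mice), villus center (7 sections, 5 mice) and villus tip (8 sections, 5 mice). Single cells of C57BL/6 mice of the same age were sorted into plates, and 2347 cells of 8 mice (named A to H here) were kept, most of them (957 and 461) from 2 gates for Pdgfra+ singlets and 557 from a gate for doublets of Epcam+ and Pdgfra+ cells. Of these, 1190 were called epithelial (a UMI of *Epcam* and none of *Pdgfra* or *Dcn*) and 317 mesenchymal (a UMI of *Pdgfra* or *Dcn* and none of *Epcam*). Of the epithelial cells, 311 came through that doublet gate. UMIs are molecular barcodes that count captured transcripts.

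The class labels held up against genes that did not define them. *Vil1*, a microvillus protein of enterocytes, reached 2024 CPM (UMIs of a gene scaled to the total of the library or pooled cells) in epithelial and 18.0 in mesenchymal cells, while the collagen gene *Col3a1* reached 4.29 and 6697. Mesenchymal cells came mainly from mice A (105 cells) and G (193 cells), with 6 cells in mouse B and 12 in mouse E. Bulk samples held 748458 to 4210158 UMIs, and the 4 samples of batch a were shallower than the 4 of batch b. From the LCM data 378 genes abundant in control epithelium were removed, which had held 4.97 to 44.7% of a section's signal. They were not chosen as specific to epithelium, so this range does not measure epithelial RNA. All 6 epithelial markers were among them, so the share of each member's LCM level that came from epithelium was not tested. *Lgr5* itself was at 44.6, 76.5, 10.6 and 24.2 CPM in control and 46.8, 32.6, 6.23 and 12.5 in DT epithelium. The groups overlapped. These values cannot check the ablation, since villus tip telocytes lie in the stroma and the samples were isolated epithelium. The paper also reports that by the time of sampling *Lgr5* had returned in the crypt but was still absent from the villus tip.

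The promoters of 4 members are shown because of their shares among crypt-type and villus tip-type cells, described further on, where no member passed the main test. *Ephb2* (chr4:136647539-136835988, minus strand) and *Ephb3* (chr16:21204755-21223305, plus strand) had their higher share in crypt-type cells, and *Efna1* (chr3:89271733-89281142, minus strand) and *Epha2* (chr4:141301240-141329384, plus strand) in villus tip-type cells. *Ephb4*, *Efnb1*, *Efnb2* and *Epha1* also had their higher share in crypt-type cells, the deeper class, and their windows are not printed. Each window of 300 bases runs 5′ to 3′ from 250 bases before to 50 bases after a RefSeq gene start (GRCm38.p6), and all 9 members had such a window. Capitals mark matches on either strand to the TCF/LEF letters CTTTGAT or CTTTGAA, the GC box GGGCGG and the AP-1 letters TGAGTCA. No 2 matches overlapped in the windows printed.
Ephb2, chr4:136835963-136836262, minus strand: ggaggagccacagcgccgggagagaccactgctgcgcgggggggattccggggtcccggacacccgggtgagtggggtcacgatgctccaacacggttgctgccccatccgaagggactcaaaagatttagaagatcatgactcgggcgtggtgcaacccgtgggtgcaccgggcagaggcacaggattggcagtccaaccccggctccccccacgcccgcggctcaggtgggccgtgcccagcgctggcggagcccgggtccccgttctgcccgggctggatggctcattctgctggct
Ephb3, chr16:21204545-21204844, plus strand: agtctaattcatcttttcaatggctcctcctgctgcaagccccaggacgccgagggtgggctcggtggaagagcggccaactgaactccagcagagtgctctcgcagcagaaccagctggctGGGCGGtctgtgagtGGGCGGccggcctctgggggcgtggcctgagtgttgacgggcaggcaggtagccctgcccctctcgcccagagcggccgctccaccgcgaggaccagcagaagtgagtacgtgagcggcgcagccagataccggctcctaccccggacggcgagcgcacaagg
Efna1, chr3:89280902-89281201, minus strand: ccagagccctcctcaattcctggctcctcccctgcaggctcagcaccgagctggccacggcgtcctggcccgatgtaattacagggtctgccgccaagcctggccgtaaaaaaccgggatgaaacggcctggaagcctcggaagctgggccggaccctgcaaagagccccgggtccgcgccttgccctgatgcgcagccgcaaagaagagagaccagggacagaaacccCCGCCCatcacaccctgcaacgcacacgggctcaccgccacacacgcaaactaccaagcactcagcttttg
Epha2, chr4:141300971-141301270, plus strand: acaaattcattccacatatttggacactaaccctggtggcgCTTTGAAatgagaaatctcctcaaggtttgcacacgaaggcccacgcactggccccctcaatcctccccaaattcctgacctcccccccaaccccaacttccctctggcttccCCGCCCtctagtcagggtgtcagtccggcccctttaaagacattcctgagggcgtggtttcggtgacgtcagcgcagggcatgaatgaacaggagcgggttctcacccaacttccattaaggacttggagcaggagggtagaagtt

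The *Ephb2* window held none of these letters, that of *Ephb3* held 2 GC boxes and that of *Efna1* 1, while the second listed start of *Efna1* had 2 in its window. The *Epha2* window held 1 GC box and, from base 42, the only TCF/LEF match in a window of the 9 members. Among all 32851 windows in the table, 3.729% held CTTTGAT, 5.135% CTTTGAA, 35.658% the GC box and 5.202% the AP-1 letters. G and C made up 68.7% of the *Ephb2* window, 66.7% of that of *Ephb3*, 63.7% of that of *Efna1* and 54.7% of that of *Epha2*, against a median of 52.7% over all windows. These matches describe the letters and say nothing on binding.

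In bulk epithelium the ligands had the highest means of the members over the 8 samples. Levels of genes were set side by side in CPM, since a UMI stands for 1 captured transcript whatever its length. Over the 8 samples *Efnb2* ranged from 42.4 to 100.2 (mean 74.5), *Efnb1* from 55.0 to 94.2 (mean 72.8) and *Efna1* from 46.8 to 92.4 (mean 59.5), and these 3 ranges overlapped. The receptors *Epha1* (mean 31.9), *Ephb4* (28.7), *Ephb2* (25.1) and *Epha2* (24.8) followed, and their ranges overlapped one another. The range of *Epha1* (14.8 to 60.3) also overlapped those of the 3 ligands. In the controls of batch a its mean was 54.2, against 53.9 for *Efna1*. *Ephb3* lay below all of these members, between 4.17 and 8.88, and *Epha3* was found as 1 UMI in 1 control sample. Of the other 12 family genes listed, *Efna4* was highest with a mean of 7.48, and *Ephb1* had 0 UMIs in all 8 samples.

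No member passed the test of DT against control epithelium. Of the 9, 7 were abundant enough to be tested, and 0 of these had an adjusted p under 0.05 in edgeR's quasi-likelihood test with batch as a term and Benjamini-Hochberg adjustment, where 0.356% of all 8986 genes tested did (30 lower, or 0.334%, and 2 higher, or 0.0223%). Taken without regard to batch, the 4 values of a group lay apart from those of the other for 0 of the 7, and for 3.08% of all genes (1.21% higher and 1.87% lower in DT). DESeq2 also called 0 members. With replicate number as a block 3 genes were called, and again 0 members. At an unadjusted p under 0.05 there were 2 of 7 members, against 17.3% of all genes. The median log2 difference of the 7 was -0.10 and that of all genes 0.00. In bulk samples fewer cells of a type and less RNA per cell cannot be told apart.

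Of the 7 members tested, *Epha2* and *Epha1* had the log2 differences farthest below 0, and neither passed. *Epha2*, a receptor for ephrin-A1 found widely in epithelia, was at 33.8, 47.1, 29.02 and 17.5 CPM in control and at 15.0, 15.1, 20.8 and 19.96 in DT samples. The DT values lay below 3 of the 4 control values, and the groups overlapped through control replicate 4. The log2 difference was -0.70 ± 0.28 (SE, adjusted p = 0.24 in edgeR). Within batch a it was -1.39 and within batch b -0.22, and the interaction of DT with batch had a log2 value of 1.19 (adjusted p = 1.00 in edgeR over 8986 genes, unadjusted p = 0.027). *Epha1* (chr6:42358487-42373268), a receptor first cloned from a carcinoma, was at 48.1, 60.3, 24.7 and 17.8 in control and at 45.9, 26.8, 14.8 and 16.6 in DT samples, a log2 difference of -0.52 ± 0.22 (SE, adjusted p = 0.26 in edgeR). Its values in batch b lay below all those in batch a in both groups. Within each batch both DT values of *Epha1* lay below both control values, and how many genes did so was not counted.

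Of the ligands, *Efnb1* (chrX:99136130-99148991, encoding ephrin-B1) was at 85.5, 94.2, 70.6 and 78.3 CPM in control and at 72.6, 55.0, 56.3 and 69.4 in DT samples. The groups overlapped by DT replicate 1 alone, and within each batch both DT values lay below both control values. How many of all genes separated so within batches was not counted. The log2 difference of *Efnb1* was -0.36 ± 0.17 (SE, adjusted p = 0.29 in edgeR). *Efnb2* (chr8:8617434-8661242, encoding ephrin-B2, an arterial marker in vessels) differed by -0.10 ± 0.20 (adjusted p = 0.82) and *Efna1*, encoding ephrin-A1, by 0.29 ± 0.21 (adjusted p = 0.48). The 95% intervals allowed a log2 difference from -0.54 to 0.33 for *Efnb2* and from -0.17 to 0.75 for *Efna1*. Of the DT samples, replicate 3 stood at 92.4 for *Efna1* while the other 3 lay between 52.8 and 58.4, and without it the difference was 0.056.

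*Ephb2*, the receptor whose level falls from the crypt base upwards in the epithelium, was at 20.1, 32.4, 22.5 and 24.8 CPM in control and 19.2, 28.3, 23.6 and 30.4 in DT samples. The log2 difference was 0.08 with a 95% interval from -0.39 to 0.55 (adjusted p = 0.87 in edgeR). *Ephb4* (chr5:137350109-137378669, the ephrin-B2 receptor of veins) was at 17.2, 16.2, 32.8 and 41.7 in control and 15.9, 24.4, 40.2 and 41.2 in DT samples, a log2 difference of 0.19 ± 0.19 (SE, adjusted p = 0.63 in edgeR). *Ephb3* was at 5.03, 4.41, 4.27 and 8.88 in control and 4.17, 7.79, 5.19 and 5.82 in DT samples and was left out by the filter on low counts.

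**Figure D1:**
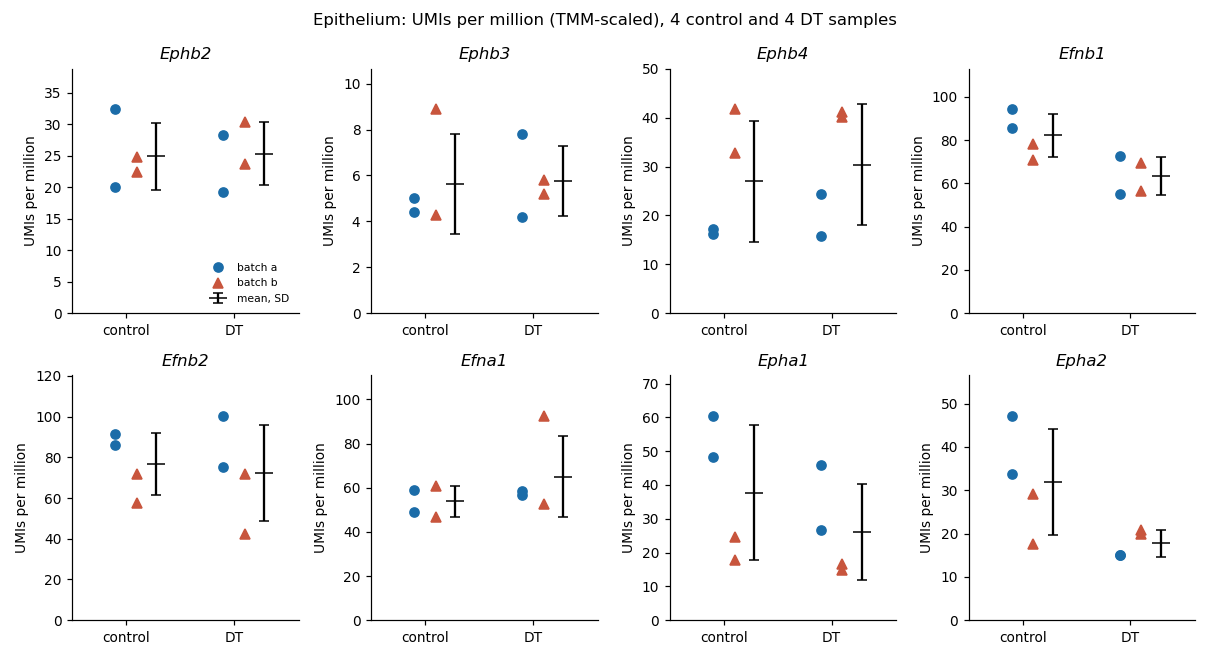
CPM of 8 members in each of 4 control and 4 DT epithelial samples (circles, batch a; triangles, batch b; bars, mean and SD of the 4 samples). *Ephb4* and *Epha1* separate by batch in both groups, and 3 of 4 control values of *Epha2* lie above all 4 DT values.

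Between batches 2 members did pass the test. *Ephb4* was 2.23 times as high in batch b as in batch a in control and 2.02 times in DT samples, with a log2 difference of 1.06 ± 0.20 (SE, adjusted p = 0.0025 in edgeR). *Epha1* went the other way, with batch b at 0.392 times batch a in control and 0.432 times in DT samples (log2 difference -1.26 ± 0.22, adjusted p = 0.0018 in edgeR). These were 2 of 7 members, against 42.1% of all genes tested between batches. The sum of the 6 endothelial markers ranged from 3.77 to 20.8 CPM in control and from 2.08 to 14.2 in DT samples. Of these markers only *Pecam1* passed the filter on low counts. In batch a it was at 20.8 and 19.1 in control and 11.7 and 10.7 in DT samples. In batch b, where *Ephb4* was higher, *Pecam1* was at 3.60 and 3.23 in control and 1.04 and 2.08 in DT samples. The part of endothelial cells in the *Ephb4* values was not tested.

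The 2 gene lists fixed around the pathway gave 0 calls under DT as well. Of 31 partners in Eph signalling, 26 were tested and 4 had an unadjusted p under 0.05, where 17.3% of all genes did. These 4 were below 0 in DT, the exchange factors *Kalrn* (log2 difference -0.87 ± 0.26), *Vav2* (-0.61 ± 0.19) and *Ngef* (-0.49 ± 0.22) and the kinase *Src* (-0.51 ± 0.20), with adjusted p from 0.22 to 0.28 in edgeR. The median log2 difference of the 26 was -0.16. Of 11 crypt Wnt target genes, 9 were tested, 7 had a value above 0, and the median was 0.28. At an unadjusted p under 0.05 were the replication gene *Cdca7* (0.58 ± 0.21) above 0 and *Lgr5* (-0.75 ± 0.32) and the ubiquitin ligase *Rnf43* (-0.49 ± 0.23) below it. The sum of 6 proliferation markers was 504 to 731 CPM in control and 638 to 865 in DT samples. The sum of 6 epithelial markers was 5790 to 7090 in control and 4789 to 6120 in DT samples, and that of 6 immune markers 147 to 414 and 52.1 to 260. Of the 3 villus tip genes that choose the villus tip-type cells used further on, *Ada* (log2 difference -2.06 ± 0.24, adjusted p = 0.011) and *Nt5e* (-2.66 ± 0.44, adjusted p = 0.038) were lower in DT epithelium in edgeR.

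For each member the genes most like it over the 8 epithelial samples were listed by Pearson's r of log2 levels centred within batch. The closest 3 were *Gpn1* (r = 0.975), *Hist1h1d* and *Rrp1b* for *Ephb2*. For *Ephb4* they were *Gm10073* (0.982), *Hspa8* and *Mid1ip1*, for *Efnb1* *Tor1b* (0.987), *Fam193a* and *Lrmp*, and for *Efnb2* *Gramd3* (0.970), *Ppm1j* and *Aim2*. For *Efna1* they were *Ankrd40* (0.992), *Ehhadh* and *Saysd1*, for *Epha1* *Snrk* (0.997), *Skiv2l* and *9930111J21Rik2*, and for *Epha2* *Kdm7a* (0.994), *Phtf1* and *Adgrd1*. The 8 points share batches and treatment, and these genes are the highest of all those tested.

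Across the zones of the captured stroma no member passed the test. Levels are in ppm, each transcript's part of the retained signal, scaled for transcript length by the authors, and were averaged over the sections of a mouse. Villus against crypt gave 0 of 8 members and 0% of 13535 genes at an adjusted p under 0.05 in limma with mouse as a block, and villus tip against villus bottom gave 0 of 8 members and 0% of genes. At an unadjusted p under 0.05 the first comparison gave 0 members (2.69% of genes) and the second 1 (7.81% of genes). In simulations of these designs, 200 genes were given a log2 shift of 2 and 0 of them were recovered, while a shift of 4 was recovered for 95 and 93. Shifts between these were not simulated.

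*Epha2* was the most steadily detected member in the captured fragments, with 20.5 to 152 ppm over the 18 mouse and zone values. It was at 37.6, 152 and 43.0 ppm in the crypt, at 33.2, 41.8, 43.0, 111 and 46.4 at the villus bottom, at 20.5, 106, 51.3, 36.2 and 55.7 at the center and at 29.7, 101, 52.9, 94.2 and 97.2 at the villus tip of mice 1 to 5. The zones overlapped, and the log2 difference of tip and bottom was 0.44 with a 95% interval from -0.61 to 1.49. *Efnb1* followed at 2.78 to 48.4 ppm, where the lowest 3 values were those of mouse 4 in its 3 zones. Its zone means were 32.7 ± 6.24 (SD, n = 3) in the crypt, 23.0 ± 9.59 at the villus bottom, 32.4 ± 16.6 at the center and 30.5 ± 17.1 at the tip (n = 5 each), which did not differ beyond their spread.

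*Efna1* varied most between animals. It was at 155, 0.978 and 17.4 ppm in the crypts of mice 1 to 3, and in the villus it ranged from 0 in the centers of mice 4 and 5 to 177 at the tip of mouse 3. Villus exceeded crypt in 2 of 3 mice, and the log2 difference of 1.65 had a 95% interval from -0.79 to 4.09. It was 3.57 without mouse 1, 0.21 without mouse 2 and 0.075 with no block for mouse. *Ephb3* was at 0.128, 0.0466 and 11.8 ppm in the crypt and at 1.17, 0.218, 0, 0.928 and 0 at the villus center. At the villus bottom it was at 0, 0.566, 0.526, 0.487 and 5.15 ppm and at the tip at 1.98, 1.98, 15.7, 8.12 and 4.31, higher at the tip in 4 of 5 mice. The difference of tip and bottom was 1.67 ± 0.75 on the log2(ppm + 1) scale (SE, unadjusted p = 0.040, adjusted p = 0.62 in limma). *Ephb2* had medians of 3.89 ppm in the crypt (3 mice), 2.98 at the villus bottom, 5.28 at the center and 9.01 at the tip (5 mice each). At the tip it ran from 0.832 to 21.9 ppm, and the highest values, 21.9 and 14.0, were those of mice 4 and 5, which had no crypt fragments. Within mice, villus exceeded crypt in 1 of 3 (log2 difference -0.39, not called in limma) and tip exceeded bottom in 4 of 5.

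*Ephb4* and *Efnb2*, the receptor of veins and its ligand in arteries, were both highest in 1 library. At the villus center *Ephb4* was at 5.08, 1.39, 9.96, 101 and 2.42 ppm in mice 1 to 5 and *Efnb2* at 9.90, 1.57, 3.37, 116 and 21.5. Elsewhere *Ephb4* did not exceed 9.96 and *Efnb2* not 21.6 ppm. In the same library of mouse 4 the immune marker *Ptprc* was at 1647 ppm against at most 313 in any other, and the proliferation marker *Top2a* at 1453 against at most 233. The rest of both lists did not go with them. The other 5 immune markers were at 0 (*Cd3e*) to 18.9 ppm (*Coro1a*), with *Cd52* at 7.28 against up to 1381 elsewhere, and the other 5 proliferation markers were at 0 (*Mcm2*) to 148 ppm (*Tyms*), with *Mki67* at 1.91 against up to 28.7, all below the highest of the other libraries. The 6 endothelial markers were also below the highest of the others, with *Cdh5* at 26.8 and *Kdr* at 6.30 ppm, while of the 6 mesenchymal markers *Pdgfra* alone exceeded the others (55.1 against at most 36.1). The part of these genes in the 2 high values was not tested. Without mouse 4 *Ephb4* fell below the filter on low values, and the log2 difference of tip and bottom moved from 0.11 to -0.04 for *Efnb2*.

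**Figure D2:**
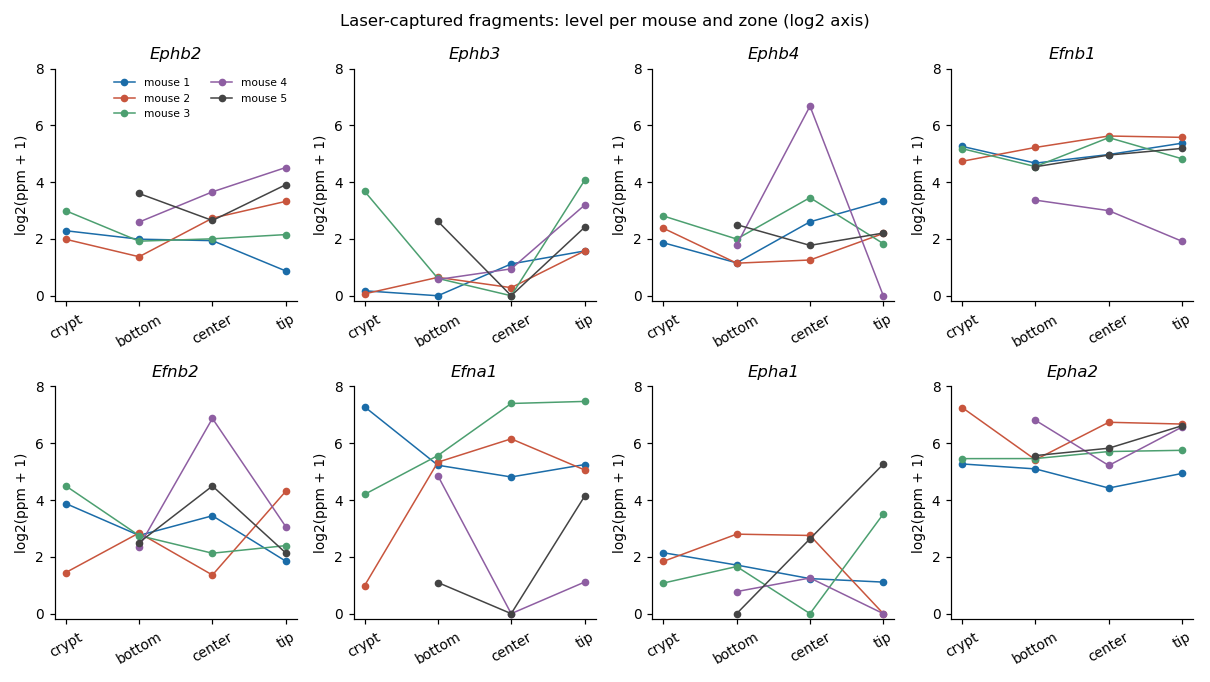
Levels of 8 members as log2(ppm + 1) in laser-captured fragments of the crypt and of 3 villus zones, 1 line per mouse (5 mice, 3 of them with crypt fragments). Lines of different mice cross in every panel, and the villus center of mouse 4 stands out for *Ephb4* and *Efnb2*.

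Of the other family genes in the captured fragments, 8 of 13 passed the filter on low values and 0 were called in either comparison. The receptor *Epha5* was the most abundant of them, at 3.63 to 78.5 ppm. The ligand *Efna5*, encoding ephrin-A5, ranged from 0 to 16.3 ppm and was lower at the tip than at the bottom in 4 of 5 mice (log2 difference -1.08, 95% interval from -2.51 to 0.35). Eph signalling partners gave 0 calls of 26 tested and crypt Wnt target genes 0 of 10 in both comparisons.

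In single cells the members were sparse. Between 0.213% (*Epha3*) and 5.28% (*Efnb1*) of the 2347 kept cells had a UMI of a member, and 36 immune cells had 0 UMIs of any family gene, which allows a share of up to 8.33% for each by the limit of 3 counts and 9.74% by the exact interval. The 17 endothelial cells held 2 UMIs of *Efnb1*, 1 of *Efnb2* and 0 of *Ephb4*, and 0 of 17 allows up to 17.6% by the limit of 3 counts and 19.5% by the exact interval. Each of the 384 well barcodes was reused on more than 1 plate and was told apart by its plate. Intervals and limits here cover counting error only.

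*Efna1*, *Epha1* and *Epha2* had their higher level in epithelial cells. *Epha1* had 37 UMIs in 33 epithelial cells and 0 in mesenchymal cells. Over 8 mice its epithelial level ran from 0 through a median of 16.7 to 26.4 CPM, with a UMI in 7 of 8 mice, and all 4 mesenchymal sums were at 0, where 1 UMI would have been worth 3.77 CPM in mouse G and 223 in mouse B. Pooled over mice it was at least 1.59-fold higher in epithelial cells, against a floor of 3 UMIs over the mesenchymal cells. *Efna1* was at 19.8 CPM in epithelial (60 UMIs) and 2.57 in mesenchymal cells (1 UMI), a ratio of 7.72 with a 95% counting interval from 1.33 to 310.1. *Epha2* was at 20.5 (62 UMIs) and 5.13 (2 UMIs), a ratio of 3.99 with an interval from 1.06 to 33.7. Thinned to 400 UMIs per cell, the share with a UMI was 0.496% against 0% for *Epha1*, 0.798% against 0.123% for *Efna1* and 1.03% against 0.121% for *Epha2*.

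Of the EphB receptors only *Ephb3* passed the test between the classes given further on, and only under some settings. *Ephb3* had 6 UMIs in epithelial and 7 in mesenchymal cells, or 1.98 and 18.0 CPM, a ratio of mesenchymal to epithelial of 9.06 with a 95% counting interval from 2.61 to 32.6. Its epithelial UMIs were found in mouse A (2.45 CPM) and mouse E (16.8), with 0 in the other 6 mice, and its mesenchymal UMIs in mouse A (18.3) and mouse G (18.9). *Ephb4* was at 3.30 (10 UMIs) and 12.8 (5 UMIs), a ratio of 3.88 with an interval from 1.04 to 12.5, and *Ephb2* at 6.61 (20 UMIs) and 15.4 (6 UMIs), a ratio of 2.33 with an interval from 0.766 to 6.02. For comparison, the epithelial gene *Vil1* was found in 1.58% of mesenchymal and 86.0% of epithelial cells and *Ephb3* in 1.89 and 0.420%, at median depths of 1030 and 2022 UMIs. Mesenchymal cells held *Vil1* at 0.00888 times its epithelial level, the lowest such ratio of the epithelial markers compared. *Krt20* was at 0.0106, *Cldn7* at 0.0240, *Krt8* at 0.0394 and *Cdh1* at 0.0661 times. The part of stray epithelial RNA in the mesenchymal UMIs of *Ephb3* was not tested.

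*Epha3* (chr16:63543534-63864175), a receptor of mesenchymal tissues that binds ephrin-A5, was found in no epithelial cell. All 9 UMIs lay in 5 mesenchymal cells of mouse G, where its level was 34.0 CPM. Pooled, it was at least 23.3-fold higher in mesenchymal cells against a floor of 3 UMIs over the epithelial cells, and it missed the filter of 10 UMIs. With no filter it passed (adjusted p = 3.6e-05 in edgeR), on the cells of 1 mouse. The ligand *Efna5* (chr17:62604184-62881317) went with it, with 34 UMIs in 21 mesenchymal and 0 in 1190 epithelial cells, at least 88.0-fold higher. Its mesenchymal level was 27.4 CPM in mouse A, 0 in mouse B, 247 in mouse E (2 UMIs) and 109 in mouse G.

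*Efnb1* was found in both classes, and *Efnb2* in mesenchymal cells of 1 mouse only. *Efnb1* was at 38.3 CPM in epithelial (116 UMIs) and 25.7 in mesenchymal cells (10 UMIs), a ratio of 1.49 with a 95% interval from 0.783 to 3.20. All 8 mice had an epithelial UMI of it, from 5.59 through a median of 41.5 to 569 CPM, where the highest was mouse D with 8 cells. *Efnb2* was at 23.1 (70 UMIs) and 10.3 (4 UMIs), a ratio of 2.25 with an interval from 0.842 to 8.50. All 4 mesenchymal UMIs of *Efnb2* lay in mouse A, and the 193 mesenchymal cells of mouse G held 0. Without mouse A its log2 difference went from 1.24 to 5.34 and passed (adjusted p = 0.023 in edgeR).

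Sums per mouse (8 epithelial and 4 mesenchymal) were tested by edgeR's quasi-likelihood test with no term for mouse. *Epha1* was called higher (adjusted p = 0.014 in edgeR) and *Ephb3* lower (log2 difference -2.43 ± 0.93 SE, adjusted p = 0.030 in edgeR) in epithelial cells. These were 2 of 8 members tested, against 34% of all 11893 genes (15.4% higher and 18.6% lower in epithelial cells). At an unadjusted p under 0.05 there were 4 of 8 members and 43.4% of genes. *Efna1* (adjusted p = 0.052), *Epha2* (0.11), *Ephb4* (0.27), *Efnb1* (0.22), *Efnb2* (0.28) and *Ephb2* (0.46) did not pass. *Efna1* passed with DESeq2's size factors (0.019), with no filter (0.029), with the lower minimum of UMIs per cell (0.034), with cells of both markers (0.048) and without mouse B (0.0033), C (0.040) or D (0.040), but not in DESeq2 (0.63) or with mouse as a block (0.20). *Epha2* passed with size factors (0.046). Both calls were lost with mouse as a block (adjusted p = 0.079 for *Epha1* and 0.24 for *Ephb3*) and without mouse G (0.17 for *Epha1*, while *Ephb3* had too few UMIs). DESeq2 called 0 members, with an adjusted p of 0.21 for *Epha1* and none given for *Ephb2*, *Ephb3* and *Ephb4*. That of *Ephb3* was also lost without mouse F (0.062) and with no filter on low counts (0.080), and it had too few UMIs without mouse A. That of *Epha1* was also lost when cells with both markers were added to each class (0.086). *Efna5* was lower in epithelial cells (adjusted p = 5.2e-13) and remained so in DESeq2 (0.00014) and with mouse as a block (4.2e-06), while without mouse G it had too few UMIs to be tested.

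Of 31 Eph signalling partners, 27 were tested between the classes, and 3 were higher and 4 lower in epithelial cells, where 15.4 and 18.6% of all genes were. The lower included *Fyn*, a Src-family kinase (log2 difference -7.19 ± 0.90), *Grb10* (-6.58 ± 0.83) and *Itsn1* (-2.88 ± 0.74), the higher *Grb7*, an adaptor that binds receptor tyrosine kinases (4.45 ± 1.08), and *Inppl1*, a lipid phosphatase bound by EphA2 (5.87 ± 1.66), with adjusted p from 6.8e-14 to 0.0022 in edgeR. The median log2 difference of the 27 was 0.49 and that of all genes 0.04. Of 8 crypt Wnt target genes tested, *Rnf43* was higher and *Smoc2* and *Cd44* were lower in epithelial cells.

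Within the epithelium no member passed the main test given further on, and the shares of cells are a description. Crypt-type cells (75 cells with a UMI of a stem or proliferation gene and none of *Ada*, *Nt5e* or *Slc28a2*) were set against 319 villus tip-type cells, chosen the other way round. The doublet gate gave 12 crypt-type and 134 villus tip-type cells, a gate for CD45 singlets 0 and 45, and the smaller gate for Pdgfra+ singlets 26 and 10. Mouse A gave 30 and 168, mouse G 5 and 92 and mouse B 10 and 0. Pooled shares and ratios therefore do not separate position from gate or animal. *Ephb2* was found in 5 of 75 crypt-type cells (6.67%, exact 95% interval from 2.20 to 14.9%) and 1 of 319 villus tip-type cells (0.313%, 0.00794 to 1.73%). *Ephb3* was found in 4 crypt-type cells (5.33%, 1.47 to 13.1%) and in 0 of 319 villus tip-type cells, which allows up to 0.940% by the limit of 3 counts and 1.15% by the exact interval. *Ephb4* was found in 3 crypt-type cells (4.00%) and 1 villus tip-type cell (0.313%), with 3 UMIs and 1 UMI, and the 95% counting interval of the ratio of its CPM (8.74) ran from 0.701 to 458.6.

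*Efna1* was found in 2 crypt-type cells (2.67%, 0.325 to 9.30%) and 22 villus tip-type cells (6.90%, 4.37 to 10.3%), and *Epha2* in 2 (2.67%) and 20 (6.27%, 3.87 to 9.52%). For both genes the intervals of the 2 classes overlapped. Crypt-type cells were deeper, with a median of 2910 UMIs against 1807. Thinned to 400 UMIs, the shares were 1.30% against 0.0398% for *Ephb2*, 0.956% against 0% for *Ephb3*, 0.224% against 1.63% for *Efna1* and 0.155% against 1.83% for *Epha2*. *Efnb1* (2.14% against 1.63%), *Efnb2* (0.836% against 0.603%) and *Epha1* (0.592% against 0.370%) lay closer together. Thinned shares under 0.1% are near the level of 1 UMI.

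**Figure D3:**
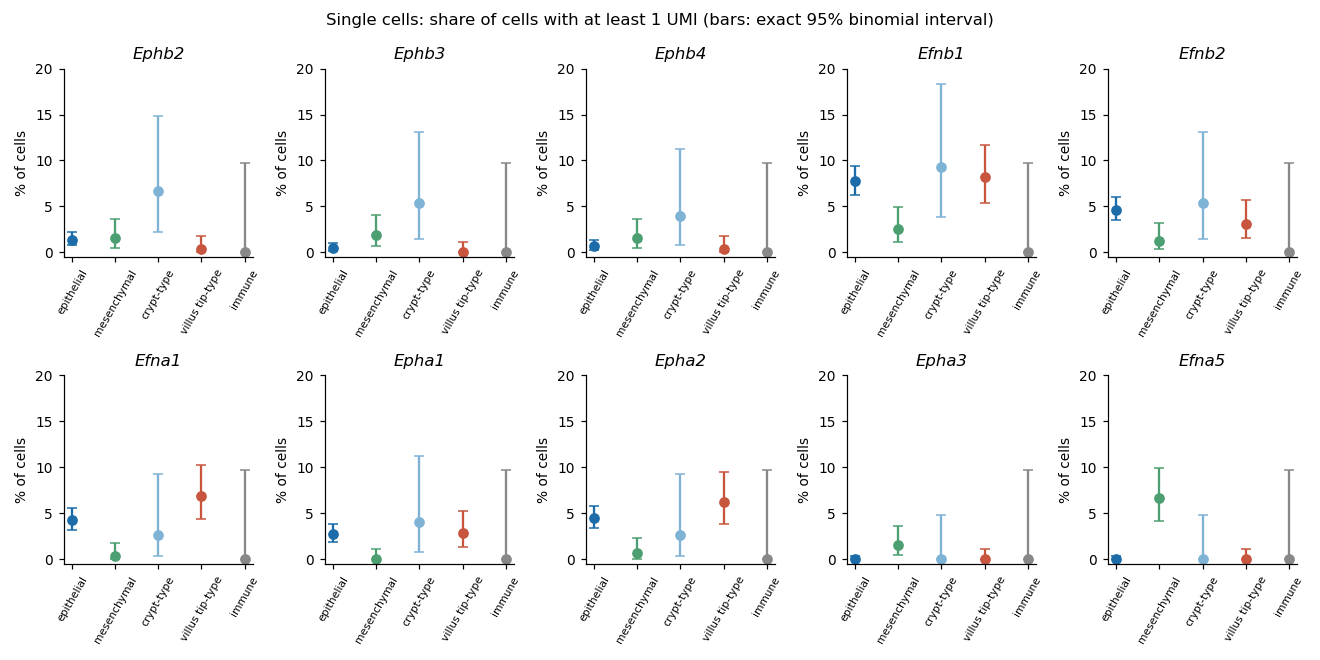
Share of cells with at least 1 UMI of the 9 members and *Efna5* in 1190 epithelial, 317 mesenchymal, 75 crypt-type, 319 villus tip-type and 36 immune cells (points; bars, exact 95% binomial interval, counting error only). Points are highest in crypt-type cells for *Ephb2*, *Ephb3*, *Ephb4*, *Efnb1*, *Efnb2* and *Epha1* and in villus tip-type cells for *Efna1* and *Epha2*. *Epha3* and *Efna5* have points above 0 only in mesenchymal cells.

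Pooled over mice, in CPM, *Ephb2* was at 22.9 in crypt-type (6 UMIs) and 2.62 in villus tip-type cells (2 UMIs), a ratio of 8.74 with a 95% counting interval from 1.56 to 88.5. *Ephb3* was at 19.1 (5 UMIs) and 0, at least 4.85-fold higher in crypt-type cells against a floor of 3 UMIs over the villus tip-type cells. Few animals gave these UMIs, *Ephb2* from crypt-type cells of mice A (2 UMIs), E (1) and F (3) and *Ephb3* from mice A (2) and E (3), with 0 in the other crypt-type sums. *Efna1* was 4.46 times as high in villus tip-type cells (26 UMIs against 2, interval from 1.118 to 38.81) and *Epha2* 3.95 times (23 UMIs against 2, interval from 0.976 to 34.6).

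Sums per mouse (5 crypt-type and 6 villus tip-type) gave 0 calls among the 5 members that passed the filter, against 12.6% of 7368 genes (7.48% higher and 5.16% lower in crypt-type cells), in edgeR's quasi-likelihood test. Of the 5, 1 had an unadjusted p under 0.05 (26.2% of genes), *Efna1* with a log2 difference of -2.18 ± 1.06 (SE, adjusted p = 0.16). DESeq2 called 0, but it gave an adjusted p for *Efnb1* only (0.78), so the other members could not be called by it. With mouse as a block 154 genes were called in place of 931, and 0 members. *Ephb2*, *Ephb3* and *Ephb4* had under 10 UMIs over the sums and were tested only with no filter on low counts, where *Ephb3* passed (adjusted p = 0.030) and *Ephb2* (0.18) and *Ephb4* (0.35) did not. All 5 UMIs of *Ephb3* in that comparison lay in crypt-type cells. Scaling mattered in this comparison: DESeq2's size factors in place of TMM moved the median of all genes by 0.93 on the log2 scale and the share of calls that were higher in crypt-type cells from 59.2 to 92.9%. Relative to the median of all genes, *Efna1* was at -1.85 with TMM and -1.92 with size factors, *Epha2* at -1.65 and -1.71, *Efnb1* at 0.12 and 0.08 and *Epha1* at -0.32 and -0.34. The differences as fitted of *Efnb1* (-0.21) and *Epha1* (-0.65) turned to 0.68 and 0.26 with size factors.

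Of the crypt Wnt target genes, 6 were tested between these cells and 4 were higher in crypt-type cells. *Lgr5* and *Smoc2* had chosen the cells, while *Myc* (log2 difference 4.66 ± 1.11, adjusted p = 0.0016 in edgeR) and *Sox9* (4.36 ± 1.09, adjusted p = 0.0028), both transcription factors, had not. Of the Eph signalling partners, 22 were tested and 0 called. Of these 6 had an unadjusted p under 0.05, where 26.2% of all genes did. Their values were below 0, with the smallest p for the kinase *Rock2* (-1.99 ± 0.80, adjusted p = 0.078), *Kalrn* (-2.52 ± 1.04) and *Src* (-2.01 ± 0.84). The median over the 22 was -0.95 beside -0.33 for all genes.

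**Figure D4:**
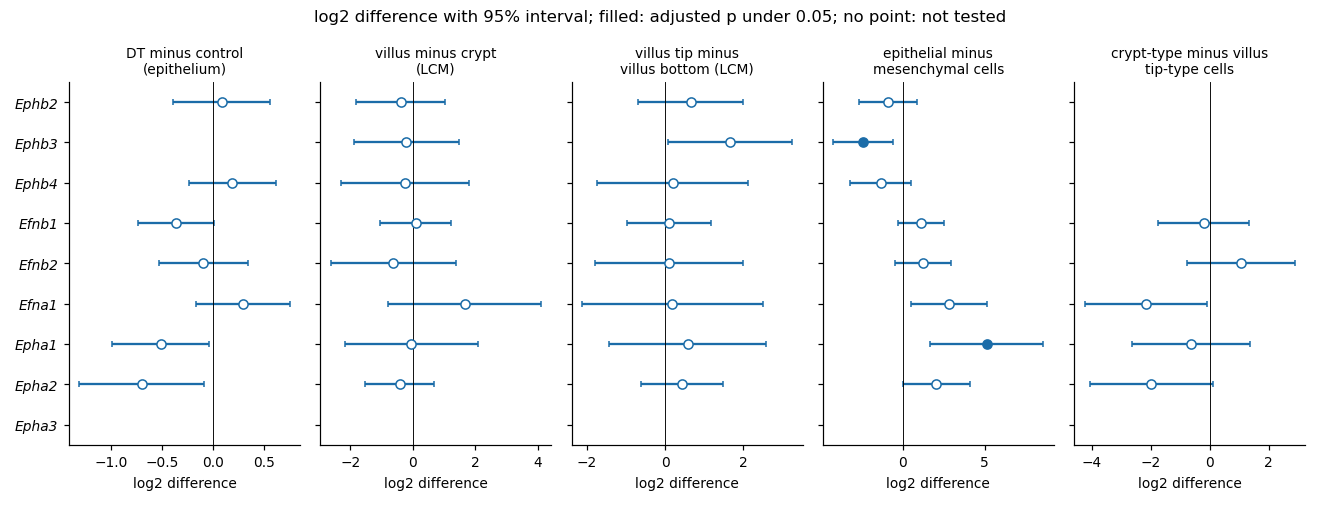
Log2 difference of each member in 5 comparisons with its 95% interval (edgeR for epithelium and single cells, limma for captured fragments; filled points, adjusted p under 0.05). The only filled points are *Ephb3* and *Epha1* between epithelial and mesenchymal cells, and members with no point were not tested.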

How the data were processed

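The authors made and deposited 3 kinds of values. Bulk epithelium (8 samples) and single cells (MARS-seq plates) were deposited as raw UMI counts per gene, made by the authors on mouse genome GRCm38 (the submitters' notes name bcl2fastq 2.15.0.4 for demultiplexing). LCM sections were deposited as TPM, computed by the authors from coding transcripts.

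The 9 members and the gene lists were chosen with earlier results of these data known. Named are all members, family genes with values, up to 5 called genes per list and the 3 genes most like each member. Bulk counts of genes above 10 CPM (UMIs scaled to the sample total; bulk levels printed are TMM-scaled) in 2 samples were tested in edgeR 4.0.16 (TMM, quasi-likelihood, batch a or b from the study's supplementary table as a term). For LCM, 378 genes were removed that lay among those making up 50% of control epithelial UMIs and were neither ribosomal nor mitochondrial. They were chosen by level and not for being specific to enterocytes. The paper removed a shorter list, chosen by enterocyte levels of an earlier study. Values were rescaled to ppm, averaged per mouse and zone and tested as log2(ppm + 1) in limma 3.58.1. Mouse was a block, and genes needed a zone mean above 5 ppm. Fold changes on that scale understate those of low genes. Wells were kept as cells when they held 400 to 8000 UMIs in no fewer than 250 genes, and were summed per mouse and class (at least 5 cells, 10 UMIs per gene) and tested in edgeR. The paper first subtracted a background estimated from empty wells of each plate. That was not done here, and its part in values of few UMIs was not tested. Doublets were not called, but cells with markers of both classes were left out. The p-values were Benjamini-Hochberg adjusted over all genes tested, with a threshold of 0.05. DESeq2 1.42.0 and the other settings are given in the closing section. Same-numbered DT and control samples deviated together (correlations 0.608, 0.414, 0.657 and 0.584), while within batches the correlations were -0.159 and -0.061. Each group had 2 samples per batch, too few to decide on a pairing by replicate number, and the cause was not tested. LCM zones were paired by animal and fitted with mouse as a block. Single-cell classes came partly from the same animals, and the main tests of their sums had no term for mouse. On simulated data with 200 genes changed by 2 on the log2 scale, 169 were recovered for DT, 104 for epithelial against mesenchymal and 135 for crypt-type against villus tip-type sums. One plate of 352 wells that matched no sample was not used.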

Additional observations from a re-analysis of the deposited data

Results flagged for a closer look

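Dixon's criterion, run on groups of 4 to 10 samples, flags about 1 in 20 groups by chance where values follow a normal distribution. That was not tested here and some values rest on few UMIs, so the number flagged is not read as an excess. A sample far from the others of its group was found in 11 of 54 groups. In bulk epithelium these were *Ephb3* in control replicate 4 (8.88 CPM, next 5.03) and *Efna1* in DT replicate 3 (92.4, next 58.4). In captured fragments they were *Ephb3* at the villus bottom of mouse 5 (5.15 ppm, next 0.566), *Ephb4* and *Efnb2* at the villus center of mouse 4 (101 ppm, next 9.96, and 116 ppm, next 21.5), *Efna1* at the villus tip of mouse 3 (177 ppm, next 37.0), *Epha1* at the villus tip of mouse 5 (37.5 ppm, next 10.4) and *Epha2* at the villus bottom of mouse 4 (111 ppm, next 46.4). In single cells they were *Ephb4* in epithelial cells of mouse F (13.3 CPM, next 1.63), *Efnb1* in epithelial cells of mouse D (569, next 63.9, from 5 UMIs in 8 cells) and *Epha2* in villus tip-type cells of mouse C (196, next 43.2, from 1 UMI in 6 cells).

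The 761 kept cells with no class marker entered no comparison and also held UMIs of members, 6 of *Ephb4*, 22 of *Efnb1*, 20 of *Efnb2*, 19 of *Efna1*, 8 of *Epha1* and 26 of *Epha2*.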

How the results depend on the processing

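Of 406 comparisons of a member's difference under an alternative with its main value, 362 kept direction and side of the threshold. In 27 the direction was reversed, in 10 the member came to pass and in 7 it no longer passed. Where DESeq2 gave no adjusted p, direction alone was compared. Counts of genes called are not among the 406. In DT epithelium 0 members were called under every setting tried, while the count over all genes went from 32 to 635 with no filter on low counts (more genes tested), 159 with DESeq2, 1 with no batch term, 3 with the replicate block, 0 within batch a, 5 within batch b and 3 to 41 when 1 sample was left out. DESeq2 moved the share of calls higher in DT from 6.25 to 28.3%. *Ephb2* was at -0.075 within batch a, and with 1 sample left out at -0.023 to 0.207, with *Efnb2* at -0.253 to 0.055.

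In captured fragments villus against crypt gave 2 genes with no filter. *Epha1* turned to 0.071 with a pseudocount of 5 ppm, and with no replicate block *Ephb2* turned to 0.19, *Ephb3* to 0.00037 and *Efnb1* to -0.44. *Efna1* went to 0.075 with no replicate block. With 1 mouse left out it was at 0.21 to 3.57, *Epha1* at -0.39 to 0.33, *Ephb4* at -0.613 to 0.060, *Efnb1* at -0.23 to 0.27 and *Efnb2* at -1.63 to 0.10. Tip against bottom gave 0 to 4 genes with 1 mouse left out (4 without mouse 4), with *Ephb4* at -0.30 to 0.32, *Efnb1* at -0.044 to 0.494, *Efnb2* at -0.23 to 0.36 and *Efna1* at -0.52 to 1.17.

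For epithelial against mesenchymal cells, members called went from 2 to 4 with DESeq2's size factors and with cells of 200 UMIs and 100 genes, to 0 with DESeq2 and the replicate block, and to 0 to 3 with 1 mouse left out. The count over all genes went from 4046 to 2536 with DESeq2, 2461 with the block and 1826 (without mouse G) to 4161 with 1 mouse left out. Size factors moved the median of all genes by 0.18 on the log2 scale. For crypt-type against villus tip-type cells the replicate block gave 154 genes and leaving out 1 mouse 62 (without mouse A) to 1077, with 445 without mouse G and 467 without mouse H. Members called were 1 with no filter and 0 to 1 with 1 mouse left out. *Efnb1* turned to 0.68 and *Epha1* to 0.26 with size factors and to 0.62 and 0.33 with DESeq2, *Efnb2* to -0.21 with the replicate block, and *Efnb1* was at -0.69 to 0.56 with 1 mouse left out. The cause was not tested. Counts of under 10 UMIs limit the EphB receptors between crypt-type and villus tip-type cells, and the number of mice limits the captured fragments.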
